A study of Homo sapiens with 3 samples.

Results

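The urea cycle turns ammonia, which is toxic, into urea, and in the body it runs almost wholly in hepatocytes. NAGS makes the activator of CPS1, CPS1 joins ammonia and bicarbonate in the mitochondrion, OTC adds ornithine, ASS1 and ASL build and split argininosuccinate in the cytosol, and ARG1 releases urea from arginine. ARG2 is the mitochondrial arginase of tissues outside the liver, GLS2 is the liver glutaminase that feeds ammonia into the cycle, and GLUL, glutamine synthetase, captures the ammonia that escapes it in the hepatocytes around the central vein. Hepatocellular carcinoma (HCC) cells often lose part of this set, and those without ASS1 depend on arginine from outside.

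The mRNA of these 9 enzymes was read by gene symbol in 3 libraries that together list 16149 genes. A gene that a library did not list was set to 0. HCCLM3 is a human HCC cell line with metastatic behavior in mice, and a derivative carrying red fluorescent protein served as the parental line of the study. One library was made from each of 3 cultures grown in DMEM: the parent, labelled as having low metastasis ability, subclone 1, with a higher ability directed to the lung, and subclone 2, with a dual ability for the lung and the celiac lymph node. The methods of the study call the parental line highly metastatic and describe the subclones as single cell-derived lines grown out of metastases in mice, so each subclone stands for 1 clone, and which clone was sequenced is not named. With 1 library per cell line no test between lines was possible, and the 95% intervals given with values below cover counting error only.

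The deposited values are RPKM, read counts adjusted for gene length and for the total of the library. The step between neighbouring low values gave back the reads behind them, with library totals of 4488825 reads in the parent, with 4609696 in subclone 1 and 4725150 in subclone 2. On this scale 1 RPKM of a gene of middling length rests on few reads, so low genes were measured poorly. Against the labelled cell type, the hepatocyte markers were uneven. APOA2 was at 0 in the 3 libraries, TTR, APOA1 and SERPINA1 had at most 4 reads, and albumin (ALB) was at 2.46 RPKM in the parent, with 49.5 in subclone 1 and 68.8 in subclone 2.

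Of the 9 enzymes, 8 were listed in at least 1 library, 8 in the parent, with 5 in subclone 1 and 6 in subclone 2. Of all 16149 genes, 14703, 14900 and 14931 were listed in the parent, subclone 1 and subclone 2. The enzymes listed in the parent but missing from a subclone had only 1 or 2 parental reads. Only 3 of the 9 enzymes, ASL, ARG2 and GLUL, reached a mean of 1 RPKM. ASL exceeded its parental level a little over 2-fold in both subclones, ARG2 was highest in subclone 2, and GLUL was lower in subclone 1 than in the other two lines. CPS1, OTC, ARG1, NAGS and GLS2 stood at 0 to 2 reads in every library, so that of the cycle proper only ASL and, at a low level, ASS1 were read above the floor.

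The 5′ ends of the 9 genes ranged widely in base composition. Windows of 250 bases before and 50 bases after the start were taken from RefSeq (GRCh38.p14, a later build than the hg19 of the deposited values), where 9 of 9 genes matched, ASS1 and GLUL with 2 windows and CPS1 with 3. The 250 upstream bases are shown for the 3 enzymes that were detected well and for ARG1 and OTC, which are among the poorest in CpG of the enzymes at the floor, written 5′ to 3′ on the strand of the gene with every CpG in capitals. They lie at chr7:66075569-66075818 (plus strand, ASL), chr14:67619670-67619919 (plus strand, ARG2), chr1:182391791-182392040 (minus strand, GLUL), chr6:131572976-131573225 (plus strand, ARG1) and chrX:38352354-38352603 (plus strand, OTC), each ending at the base before an annotated start. The OTC start used lies inside the RefSeq span of the gene, 38327684 to 38422928.
ASL: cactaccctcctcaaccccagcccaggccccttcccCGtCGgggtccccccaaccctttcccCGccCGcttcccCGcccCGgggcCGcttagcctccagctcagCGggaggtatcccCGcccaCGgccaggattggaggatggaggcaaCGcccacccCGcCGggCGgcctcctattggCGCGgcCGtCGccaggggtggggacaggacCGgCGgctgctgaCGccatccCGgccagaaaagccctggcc
ARG2: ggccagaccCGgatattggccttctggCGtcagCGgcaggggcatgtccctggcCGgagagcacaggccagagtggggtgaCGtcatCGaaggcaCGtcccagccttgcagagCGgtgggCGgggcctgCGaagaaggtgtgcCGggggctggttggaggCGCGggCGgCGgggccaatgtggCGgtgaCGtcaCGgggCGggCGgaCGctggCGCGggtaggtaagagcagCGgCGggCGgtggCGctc
GLUL: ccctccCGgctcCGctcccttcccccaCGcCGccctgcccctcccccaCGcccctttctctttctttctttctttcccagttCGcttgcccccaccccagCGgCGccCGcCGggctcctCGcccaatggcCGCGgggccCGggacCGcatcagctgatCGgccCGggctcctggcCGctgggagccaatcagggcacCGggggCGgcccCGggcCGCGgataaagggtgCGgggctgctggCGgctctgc
ARG1: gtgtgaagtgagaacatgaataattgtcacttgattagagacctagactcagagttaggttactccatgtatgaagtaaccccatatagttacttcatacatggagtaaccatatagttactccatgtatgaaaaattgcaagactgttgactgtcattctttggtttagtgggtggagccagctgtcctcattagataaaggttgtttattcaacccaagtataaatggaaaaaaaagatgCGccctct
OTC: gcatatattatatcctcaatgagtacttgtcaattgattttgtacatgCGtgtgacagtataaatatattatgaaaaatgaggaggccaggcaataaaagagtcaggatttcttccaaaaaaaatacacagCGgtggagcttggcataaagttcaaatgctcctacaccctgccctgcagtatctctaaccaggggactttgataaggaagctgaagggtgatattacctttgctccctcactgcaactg

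The ASL stretch held 22 CpGs, that of ARG2 27 and that of GLUL 25, against 1 in ARG1 and 2 in OTC. Over the whole windows, the observed CpGs were 0.74 of those expected from base composition in ASL, 0.86 in ARG2 and 0.74 in the first window of GLUL, compared with 0.09 in ARG1, 0.23 in OTC and 0.08 to 0.30 over the 3 windows of CPS1. NAGS, at 0.50, and GLS2, at 0.48, also at the floor, lay between them, with GC contents of 64.3 and 67.3% beside 69.7% in the second window of GLUL. ASS1 stood at 0.76 and 0.63. The enzymes read above the floor (ASL, ARG2, GLUL and ASS1) thus stood at 0.63 or more, and those at the floor at 0.50 or less. ASS1, short of a mean of 1 RPKM, had 1 window above ASL and 1 below it. With 9 genes this is a description, and a link between CpG content and level was not tested. The median over 35116 RefSeq windows was 0.58, with 0.82 for the windows of genes that reached a mean of 1 RPKM and 0.33 for the others.

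Short motifs were searched on both strands of the same windows, overlaps included. The TATA box letters TATAAA were found once each in ARG1 and OTC and in no window of the other members, while 11.5% of all windows held them. CCAAT was present in 2 places each in ASL, ARG2 and the first window of GLUL, in 1 place in the third window listed for CPS1 and in no other, the second window of GLUL included (34.6% of all windows). GGGCGG was present in 4 places in ASL, 5 each in ARG2 and NAGS, 2 in GLS2 and 2 in each window of ASS1 and GLUL, and in none of CPS1, OTC or ARG1 (45.0% of all windows). The ARG2 window alone held TGACGTCA, the letters of the cyclic AMP response element, in 2 places, and these are the runs tgaCGtca in its sequence (1.85% of all windows). These are matches of letters, not sites of binding.

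Of the entry enzymes of the cycle, NAGS was at 0.214 RPKM in the parent (0.0259 to 0.772, 2 reads), 0.104 in subclone 1 (1 read) and 0.101 in subclone 2 (1 read). CPS1 had 2 reads in the parent, 0.0772 RPKM (0.00935 to 0.279), and none in the subclones, where a count of 0 allows up to 0.113 RPKM in subclone 1 and 0.110 in subclone 2. OTC was listed in no library, which allows up to 0.422, 0.411 and 0.401 RPKM in the parent, subclone 1 and subclone 2 for its annotated transcript. These are levels at the floor of the libraries, and no difference between the lines was detectable at this depth.

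ASS1, the enzyme that joins citrulline and aspartate, had 6 reads in the parent, with 13 in subclone 1 and 6 in subclone 2. Its levels were 0.717 RPKM (0.263 to 1.56), 1.51 (0.806 to 2.59) and 0.682 (0.250 to 1.48) in that order, so that subclone 1 was highest and the 3 intervals overlapped. Subclone 1 was 2.11-fold the parent (0.748 to 6.77), subclone 2 was 0.950-fold the parent (0.254 to 3.55) and 0.450-fold subclone 1 (0.140 to 1.27), with 1 inside each interval. Processed pseudogenes of ASS1 are known, and how reads shared with such copies were counted is not given in the sources used here, so the level is uncertain, as it is for GLUL.

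**Figure D1:**
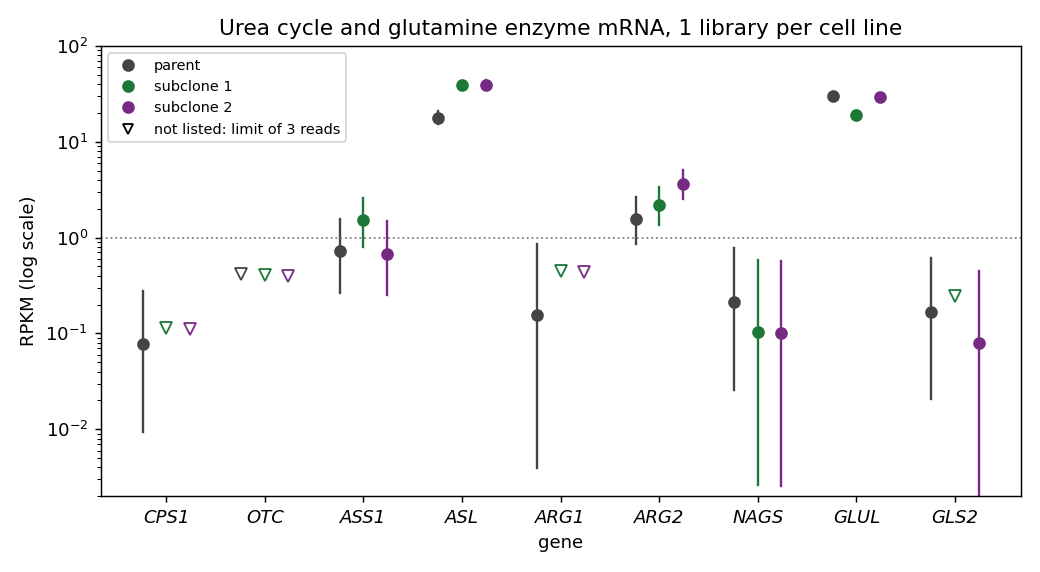
RPKM on a log axis for the 9 enzymes, with 1 point per library and bars for the 95% counting interval, and open triangles for the most that a count of 0 allows. ASL and GLUL lie well above the dotted line at 1 RPKM in the 3 libraries, ARG2 just above it, ASS1 on both sides of it, and the other 5 below it.

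ASL, argininosuccinate lyase, which releases arginine and fumarate, was at 17.9 RPKM in the parent (15.3 to 20.9, 166 reads), 39.2 in subclone 1 (35.3 to 43.3, 372 reads) and 39.4 in subclone 2 (35.6 to 43.6, 384 reads). The subclones were alike and both lay above the parent with no overlap of the intervals. The fold over the parent was 2.18 (1.81 to 2.64) in subclone 1 and 2.20 (1.83 to 2.65) in subclone 2, and subclone 2 was 1.01-fold subclone 1 (0.871 to 1.16). Among the genes with a mean of at least 1 RPKM, the ASL log2 ratio over the parent, 1.12 and 1.13, stood at the 96.0 and 95.6 percentile. Both ratios share the parental library, so a deviation of that library would move them together. In rank among listed genes ASL moved from the 72.7 percentile in the parent to 87.0 and 86.9 in subclones 1 and 2.

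The arginases, which split arginine into ornithine and urea, were read apart. ARG1 had 1 read in the parent, 0.154 RPKM (0.00390 to 0.858), and none in the subclones, which allows up to 0.450 and 0.439 RPKM in subclones 1 and 2. ARG2 was at 1.57 RPKM in the parent (0.861 to 2.64, 14 reads), 2.19 in subclone 1 (1.34 to 3.38, 20 reads) and 3.63 in subclone 2 (2.52 to 5.08, 34 reads). The ARG2 levels ran from the parent through subclone 1 to subclone 2, and neighbours in that order overlapped in their intervals. Subclone 2 was 2.31-fold the parent (1.21 to 4.65), an interval without 1, whereas subclone 1 was 1.39-fold the parent (0.668 to 2.98) and subclone 2 was 1.66-fold subclone 1 (0.928 to 3.04). The library kit does not mark strand, and ARG2 overlaps VTI1B on the opposite strand, as ARG1 does MED23 and GLS2 does SPRYD4, so reads from an overlap cannot be assigned. On the same strand, GENCODE lists the protein-coding AC068533.4 over ASL, AC097104.1 over GLS2 and AF241726.2 over OTC. Their part in the reads of these enzymes was not tested. VTI1B stood at 23.3, 23.0 and 20.3 RPKM in the parent, subclone 1 and subclone 2, and its part in the reads of ARG2 was not tested.

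GLUL was at 29.9 RPKM in the parent (27.6 to 32.3, 636 reads), 19.0 in subclone 1 (17.2 to 20.9, 414 reads) and 29.3 in subclone 2 (27.1 to 31.6, 655 reads). Subclone 1 lay below the other lines, whose intervals overlapped. Its level was 0.634-fold that of the parent (0.559 to 0.719), and subclone 2 was 0.978-fold the parent (0.876 to 1.09) and 1.54-fold subclone 1 (1.36 to 1.75). The GLUL log2 ratio of subclone 1 over the parent, -0.65, was at the 5.97 percentile of genes, and that of subclone 2 over subclone 1, 0.62, at the 95.8 percentile, both short of 2-fold. GLS2 had 2 reads in the parent, 0.169 RPKM (0.0205 to 0.611), none in subclone 1 and 1 read in subclone 2, 0.0803 RPKM (0.00203 to 0.447), with a limit of 0.247 RPKM in subclone 1.

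**Figure D2:**
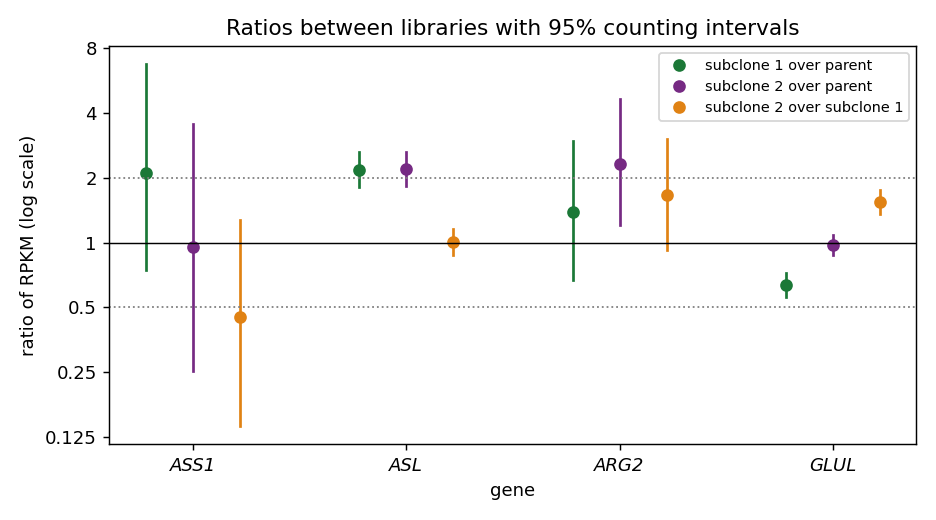
Ratios of RPKM between libraries on a log axis for the 4 enzymes with more than 3 reads in a library, with 95% counting intervals and dotted lines at 2-fold. Both ASL ratios over the parent sit near 2.2 with narrow bars, GLUL lies at 0.634 for subclone 1 over the parent and at 0.978 for subclone 2 over the parent, and every ASS1 bar crosses 1.

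RPKM is a level per length, so the enzymes were set beside each other within a library. How reads shared with pseudogenes (ASS1, GLUL) or with an overlapping gene (ASL, ARG2) were counted is not given, so these ratios are uncertain. GLUL was 1.67 times ASL in the parent, 0.484 times ASL in subclone 1 and 0.742 times in subclone 2, so ASL had the higher RPKM in the subclones and GLUL in the parent. ASL exceeded ASS1, its partner in making arginine, by 25.0, 25.9 and 57.9 times in the parent, subclone 1 and subclone 2, where the ASS1 levels rest on 6 to 13 reads. ASL exceeded ARG2 by 11.4, 17.9 and 10.9 times in the same order. In a culture read as a whole, fewer cells carrying an mRNA and less of it in each cell cannot be told apart.

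Taking a change as 2-fold on log2 of RPKM plus 0.1, 1 of the 3 enzymes with a mean of at least 1 RPKM, ASL, was higher in subclone 1 over the parent, where 4.90% of 11370 genes were, and 0 were lower (1.82% of genes). In subclone 2 over the parent 2 of 3, ASL and ARG2, were higher (5.33% of genes) and 0 were lower (2.16%). Between the subclones 0 of 3 were higher in subclone 2 (1.42%) and 0 were lower (1.39%). With 3 enzymes these counts are a description of each gene and not of the group. The median log2 ratio of the 3 was 0.45, 1.13 and 0.62 for subclone 1 over parent, subclone 2 over parent and subclone 2 over subclone 1, beside 0.00, 0.04 and 0.03 over all genes.

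The genes whose pair of log2 ratios over the parent lay nearest to that of ASL, among 8211 genes with a mean of at least 5 RPKM, were OCEL1, PTPRF and MPPE1, at distances of 0.043, 0.067 and 0.074. Those nearest to ARG2 were GBP2, CYP3A5 and FSTL3, at 0.001, 0.050 and 0.050. Each distance rests on 3 libraries, and nothing further is read from it.

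For distances, the start of a gene was taken as its lowest coordinate, whatever its strand. Genes that start within 1 Mb of ASL, a window chosen after values were seen, were compared with it to see whether the difference was shared along the chromosome. Of 12 such genes with a mean of at least 1 RPKM, subclone 1 exceeded the parent by 2-fold or more in 2, and the median log2 ratio was 0.23 (-0.20 to 1.02). They were GUSB, a lysosomal glucuronidase, at 18.4, 37.4 and 34.3 RPKM in the parent, subclone 1 and subclone 2, and TPST1, a tyrosylprotein sulfotransferase, at 9.94, 20.0 and 15.5 RPKM. GUSB starts at -115 kb from ASL and TPST1 at 123 kb. CRCP, which starts nearer at 39 kb, was at 32.0, 37.7 and 46.1 RPKM. In subclone 2 over the parent the median of the 12 was 0.27 (-0.33 to 0.89) and 0 were 2-fold different. Around ARG2, 9 genes had medians of 0.10 and 0.06 in subclones 1 and 2 over the parent, with highest values of 0.76 and 0.69, and 5 genes near GLUL had medians of 0.10 and 0.23, the lowest being -0.12 and -0.18.

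**Figure D3:**
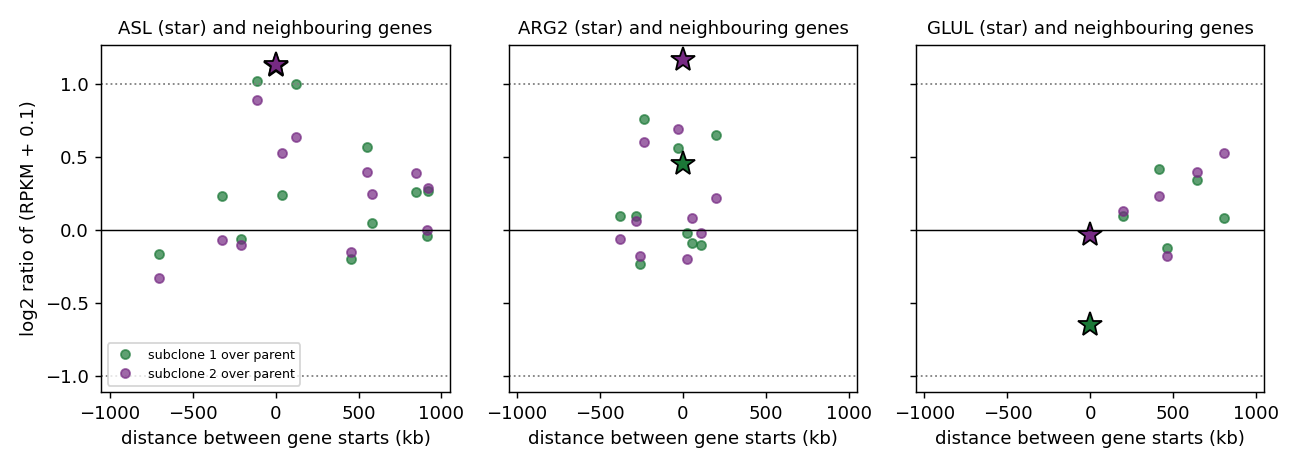
Log2 ratios over the parent of ASL, ARG2 and GLUL (stars) and of the genes around them (circles), against the distance between gene starts in kb, one panel per enzyme. A start is the lowest coordinate of the gene, whatever its strand. On either side of ASL, GUSB and TPST1 reach 1.02 and 1.00 in subclone 1, while the circles in the GLUL panel lie at -0.18 or above and its subclone 1 star at -0.65.

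Around the cycle, the carriers that move its intermediates across the mitochondrial membrane and the mitochondrial carbonic anhydrases gave 4 of 7 genes past 1 RPKM. None was 2-fold different in subclone 1 over the parent, and SLC25A29, a carrier of basic amino acids, was higher in subclone 2, at 3.57 RPKM in the parent, with 5.03 in subclone 1 and 9.55 in subclone 2, a fold of 2.67 over the parent (1.83 to 3.98). The list median was 0.15 and -0.30 in subclones 1 and 2 over the parent.

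The enzymes that make and use glutamate differed little between the lines. Of 10 genes 8 passed 1 RPKM, none was 2-fold different in any comparison, and the medians over the parent were -0.06 and -0.09. GOT2, the mitochondrial aspartate aminotransferase, was the most abundant, at 61.2, 53.5 and 55.9 RPKM in the parent, subclone 1 and subclone 2.

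The glutamine amidotransferases, which take nitrogen from glutamine for nucleotides, asparagine and amino sugars, were all 10 past 1 RPKM. None was 2-fold different, and the medians over the parent were -0.32 in subclone 1 and -0.25 in subclone 2. GMPS, of guanine nucleotide synthesis, was the most abundant at 90.7, 78.4 and 84.0 RPKM in the parent, subclone 1 and subclone 2. ASNS, asparagine synthetase, named here after its values were seen, was at 35.5, 18.6 and 30.4 RPKM, with 0.523-fold the parent in subclone 1 (0.439 to 0.622) and 0.857-fold in subclone 2 (0.737 to 0.995).

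Ornithine, the product of arginase, leads to polyamines and proline. Of 15 genes on these routes 13 passed 1 RPKM and 1 was 2-fold lower in each subclone than in the parent, with 0 higher and medians of 0.15 and 0.01. It was ODC1, ornithine decarboxylase, the first step to polyamines, at 33.5 RPKM in the parent, with 14.7 in subclone 1 and 14.9 in subclone 2. The folds of ODC1 were 0.440 (0.358 to 0.539) and 0.444 (0.362 to 0.543), which is the reverse direction of ASL in the same lines.

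Of 8 other enzymes that use arginine or its derivatives 6 passed 1 RPKM, and 3 were 2-fold higher in subclone 1 (NOS3, GAMT and DDAH1), 3 in subclone 2 (NOS3, GATM and DDAH1) and none lower. The medians over the parent were 0.92 and 1.25. Of those short of 2-fold in both, AGMAT was 1.09-fold (0.754 to 1.58) and 1.36-fold (0.960 to 1.94) the parent in subclones 1 and 2, and DDAH2 was at 17.1, 19.6 and 22.7 RPKM in the parent, subclone 1 and subclone 2. GATM, which makes the creatine precursor from arginine and glycine, was at 3.17, 4.84 and 13.3 RPKM in the parent, subclone 1 and subclone 2, a fold of 4.21 (2.93 to 6.19) in subclone 2 over the parent and 2.76 (2.03 to 3.79) over subclone 1. GAMT, which completes creatine, was at 4.51, 12.6 and 7.79 RPKM, or 2.79-fold (1.69 to 4.76) in subclone 1 over the parent. DDAH1, which breaks down methylated arginine, was at 2.16, 5.23 and 7.84 RPKM, with 2.42-fold (1.65 to 3.61) and 3.63-fold (2.54 to 5.31) the parent. NOS3, the endothelial nitric oxide synthase, was at 0.359, 1.75 and 1.41 RPKM, with 4.87-fold (2.13 to 13.0) and 3.94-fold (1.69 to 10.6) the parent, and its parental level rests on 7 reads. Of 5 endothelial markers 2 passed 1 RPKM, and 1 of them was 2-fold higher in each subclone, PECAM1 in subclone 1 (2.95-fold, 1.98 to 4.48) and KDR in subclone 2 (2.26-fold, 1.52 to 3.41). Their summed level was 5.11, 11.9 and 7.60 RPKM, CDH5 and VWF had at most 2 reads, and TEK had 8, 2 and 1 reads, the opposite direction to NOS3. Their part in the level of NOS3 was not tested.

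Among the transporters of glutamine, arginine and ammonium 10 of 14 passed 1 RPKM, 1 was 2-fold lower in each subclone and none was higher, with medians of -0.22 and -0.04 over the parent. SLC7A2, a carrier of arginine and other cationic amino acids, was at 2.76 RPKM in the parent (94 reads), with 0.143 in subclone 1 (5 reads) and 0.837 in subclone 2 (30 reads). It passed the mean of 1 RPKM only through its parental level. The fold over the parent was 0.0518 (0.0164 to 0.125) in subclone 1 and 0.303 (0.194 to 0.462) in subclone 2, and subclone 2 was 5.85-fold subclone 1 (2.25 to 19.3). SLC7A2 was lowest in subclone 1, as GLUL was, but unlike GLUL it was also lower than the parent in subclone 2.

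Of 13 regulators of hepatocyte and urea cycle genes 12 passed 1 RPKM, 1 was 2-fold higher in each subclone and none was lower, with medians of 0.10 and 0.17. It was PPARA, a nuclear receptor of fatty acid metabolism, at 2.15, 5.48 and 6.04 RPKM in the parent, subclone 1 and subclone 2, with 2.55-fold (2.01 to 3.26) and 2.81-fold (2.23 to 3.58) the parent. HNF4A, a main hepatocyte transcription factor, was at 11.7, 11.9 and 16.0 RPKM while CPS1, OTC and ARG1 stayed at 0 to 2 reads.

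GLUL marks perivenous hepatocytes, where beta-catenin signalling is active, so a list of genes of that pathway and of that zone was set beside it. Of 11 genes 8 passed 1 RPKM, with 5 lower by 2-fold in subclone 1 (LGR5, AXIN2, TBX3, ZNRF3 and NKD1) and 6 in subclone 2 (NOTUM in addition), none higher, and medians of -1.02 and -1.08. AXIN2, a feedback inhibitor of the pathway, was at 29.0, 14.4 and 13.5 RPKM in the parent, subclone 1 and subclone 2, or 0.497-fold (0.429 to 0.574) and 0.464-fold (0.400 to 0.537) the parent. LGR5, a receptor of R-spondins, was at 8.66, 0.301 and 0.147 RPKM (56, 2 and 1 reads). NKD1 was at 9.41, 0.500 and 0.406 RPKM (110, 6 and 5 reads). TBX3 was at 9.12, 2.93 and 3.87 RPKM, ZNRF3 at 8.32, 3.98 and 3.92, and NOTUM at 2.25, 1.52 and 1.02. RGN went the other way, at 3.56, 6.54 and 5.35 RPKM, or 1.84-fold (1.21 to 2.84) the parent in subclone 1 with an interval of 0.974 to 2.35 in subclone 2, and CYP2E1 and CYP1A2, enzymes of that zone, had 0 to 3 reads. GLUL was below the parent along with AXIN2 and LGR5 in subclone 1, at 0.634-fold (0.559 to 0.719). In subclone 2 it stood at 0.978-fold the parent (0.876 to 1.09). A link between the level of GLUL and these genes was not tested.

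**Figure D4:**
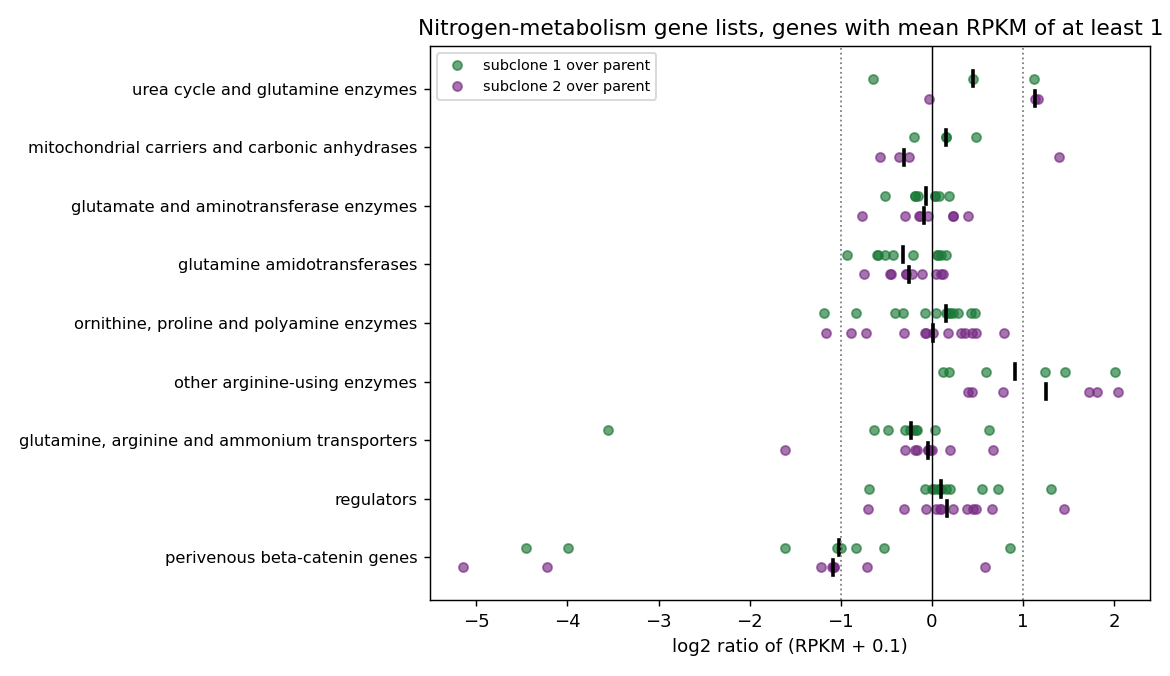
Log2 ratios over the parent of (RPKM + 0.1) for the genes of each list with a mean of at least 1 RPKM, 1 circle per gene, a black tick at the list median and dotted lines at 2-fold. The other arginine-using enzymes lie to the right of 0 with medians of 0.92 and 1.25. The perivenous beta-catenin genes lie mostly to the left with medians of -1.02 and -1.08, and the glutamate and amidotransferase enzymes within 2-fold.

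Of 9 hepatocyte markers 5 passed 1 RPKM, of which 4 exceeded the parent by 2-fold in subclone 1 and 3 in subclone 2, and their summed level was 12.9, 101 and 89.7 RPKM in the parent, subclone 1 and subclone 2. ALB was 20.1-fold (13.5 to 31.4) and 28.0-fold (18.8 to 43.5) the parent in subclones 1 and 2, and APOB, of lipoproteins, 4.10-fold (2.46 to 7.16) and 13.9-fold (8.73 to 23.4). TF, transferrin, was at 5.71, 30.3 and 5.88 RPKM, so that its parental and subclone 2 levels were close, and AFP, alpha-fetoprotein, was 1.73-fold (0.999 to 3.06) and 1.77-fold (1.03 to 3.12) the parent.

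Of the other cell types a culture could hold, summed levels in the same order were 199, 241 and 243 RPKM for cholangiocyte markers (178, 229 and 229 of it KRT19), 15.7, 31.1 and 24.3 for fibroblast markers (PDGFRB and ACTA2 at 0) and 84.4, 126 and 111 for leukocyte markers (75.3, 112 and 99.6 of it CD68, with CD3E at 0 and PTPRC at no more than 1 read). Of the markers past 1 RPKM, 1 of 3 for cholangiocytes was 2-fold lower in each subclone, KRT7, at 14.4, 3.47 and 6.04 RPKM. Of 3 for fibroblasts, LUM (10.1, 24.0 and 21.0 RPKM) and DCN (0.773, 4.42 and 2.75 RPKM) were higher in each subclone and COL3A1 (4.42, 2.21 and 0.463 RPKM) was lower in subclone 2. None of 3 for leukocytes differed by 2-fold. The part of these markers and of the hepatocyte markers in the levels of ASL, ARG2 and GLUL was not tested.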

How the data were processed

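Total RNA was taken with Trizol from 3 cultures, and libraries were made with the Illumina TruSeq RNA kit. The authors deposited RPKM per gene with Entrez number and symbol, and 0 columns of other samples were present. The submitters' processing notes name hg19. The aligner, counter, annotation and treatment of shared reads are not given in the sources used here. Only genes above 0 were listed, and other genes were set to 0.

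Ratios were log2 of (RPKM + 0.1), which understates changes of low genes. A gene with a mean of at least 1 RPKM and a ratio of at least 2-fold was counted as different. The mean is over the 3 libraries, so a gene could pass through the lines where it was high. SLC7A2, LGR5 and NKD1 did so through the parent, and NOS3 and APOB through the subclones. With 1 library per line no p-value was computed. Whole reads were recovered from the step of low values: 88.7% of 947 low genes lay on it, and 15783 of 16149 genes, holding 89.3 to 90.1% of the totals, were resolved. The recovered lengths of the 8 listed enzymes lay within -5.58 and 4.56% of a GENCODE 29 transcript. For any gene a length was accepted between 0.5 of its median transcript and 1.5 times its longest. Otherwise a multiple of that length had to lie within 10% of a transcript. Genes without a matching transcript were not checked for length. RPKM intervals are exact Poisson and ratio intervals exact Clopper-Pearson (95%). Both cover counting error only. A count of 0 was given a limit of 3 reads, and no fold is given where both libraries have 3 reads or fewer.

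The members and gene lists were chosen with earlier results of these data known. Named were all 9 members, genes of each other list at least 2-fold different with an interval without 1 (otherwise the most abundant gene), and the 3 genes nearest to each member that differed. ASNS, VTI1B, GUSB, TPST1, HNF4A and single markers were added after values were seen. 1 gene of the lists is not reported here. Alternatives were pseudocounts of 0.01 and 1, 5 rescalings, no filter or a mean of at least 5 RPKM, and a 1.5-fold threshold. Python 3.11.15, numpy 2.4.6, pandas 2.3.3, scipy 1.17.1 and matplotlib 3.10.9 were used. The recovery was tested on simulated data, where 93.4% of the resolved genes gave back their simulated reads. Some recovered counts may therefore be wrong, and the intervals do not cover that error.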

Additional observations from a re-analysis of the deposited data

Results flagged for a closer look

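ASS1 stood at opposite sides of the parent in the subclones, with a log2 ratio of 0.98 in subclone 1 and -0.06 in subclone 2, so that subclone 2 over subclone 1 was -1.05. The difference was not tested, since each line has 1 library. It rests on 6, 13 and 6 reads in the parent, subclone 1 and subclone 2, and the counting interval of each ratio includes 1.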

How the results depend on the processing

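Under the 7 other pseudocounts and scalings, all 84 log2 ratios of ASS1, ASL, ARG2 and GLUL stayed inside the counting interval of the reported value. Over these and the filter and threshold alternatives, 52 of 60 counts of enzymes kept their value. ASL over the parent ran between 0.99 and 1.14 (subclone 1) and between 1.09 and 1.19 (subclone 2), ARG2 in subclone 2 from 0.85 to 1.22 and GLUL in subclone 1 from -0.79 to -0.63. ASS1 in subclone 1 over the parent ran from 0.55 to 1.07. The counting intervals of ASS1 and ARG2 are wide, so for these enzymes staying inside them says little about stability. Divided by ACTB, 0 enzymes were 2-fold higher in subclone 1 over the parent. A pseudocount of 1, or a mean of at least 5 RPKM, left 1 enzyme higher in subclone 2 over the parent. At 1.5-fold, 2 were higher in subclone 2 over subclone 1 and 1 was lower in subclone 1 over the parent. Without a filter 2, 1 and 1 enzymes were lower in subclone 1 over parent, subclone 2 over parent and subclone 2 over subclone 1, all resting on 13 reads or fewer. For all genes, the higher and lower counts in these 3 comparisons were 347 and 117, 380 and 150, and 80 and 77 with a pseudocount of 1. They were 1523 and 884, 1553 and 941, and 842 and 902 without a filter, and 233 and 71, 253 and 93, and 43 and 46 at a mean of at least 5 RPKM. A 1.5-fold threshold gave 1317 and 848, 1444 and 830, and 540 and 467. Division by ACTB gave 328 lower genes in subclone 1 over the parent, moved the median of all genes by -0.13 there and to 0.16 in subclone 2 over subclone 1, and changed the share of higher genes among those 2-fold different from 72.9 to 57.8% and from 50.5 to 63.9%. Division by GAPDH gave a median of 0.15 and a share of 62.6% in the latter. No paired analysis was possible because there is a single library for every line, which also means that none could be left out. Depth limits CPS1, OTC, ARG1, NAGS and GLS2 to upper bounds.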
